A study of Homo sapiens with 32 samples.

Results

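The genes described here carry Notch signals to DNA through RBPJ, or belong to the RUNX family of transcription factors: NOTCH1, NOTCH2, RBPJ, MAML1, HES1, HES6, RUNX1, RUNX2 and RUNX3. Members were found by symbol among 21788 transcript clusters. Each cluster is a set of array probes and can carry 1 gene symbol, several or none. Only a cluster with exactly 1 gene symbol was used. Of the 9 genes, 8 had such a cluster, 1 cluster each, among 14405 clusters with 1 symbol. The NOTCH2 cluster also carries the symbol of its near copy NOTCH2NLA, so NOTCH2 has no value of its own here. HES6 lay below the array background in its mean over all arrays, and the other 7 genes were tested.

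The study measured mRNA stability in 7 B-lymphoblastoid cell lines (B cells immortalised with Epstein-Barr virus) from a public cell repository. Every culture was grown in RPMI medium with fetal bovine serum and exposed to 200 µM of the nucleoside 4-thiouridine (4sU), which enters RNA as it is made, over the last 2 h. No group without 4sU was compared here. Labelled (nascent) RNA and the total RNA it was taken from went onto separate human exon arrays, 16 of each, from 13 cultures. GM07029, GM10835 and GM12813 had 3 independent cultures each, GM07019, GM12812, GM12814 and GM12815 had 1 culture each, and the GM12813 cultures were also hybridised again as technical duplicates, which were averaged. No genotype, knockout or other treatment separates the lines in the labels, so a difference between lines is a difference between cultures of different donors' cells.

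A Notch receptor is cleaved when a ligand on a neighbouring cell binds it, and its freed intracellular part joins RBPJ on DNA and recruits a Mastermind-like coactivator, which turns on targets such as HES1. The viral protein EBNA2 uses the same host factor: it does not bind DNA itself and reaches many viral and cellular promoters through RBPJ. In B cells transformed by the virus, EBNA2 is known to raise RUNX3, and RUNX3 is known to hold down RUNX1.

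The DNA letters that RBPJ and RUNX proteins read are shown first. They come from a reference genome and not from these lines, so they say nothing on differences between lines. RefSeq promoter windows of 300 bases around annotated gene starts (GRCh38.p14) were searched on both strands for TGGGAA, the core read by RBPJ (TTCCCA on the other strand), and for TGTGGT, the core read by RUNX proteins (ACCACA on the other strand). The cores were counted separately, whether or not matches overlapped. Capitals mark the matches.
HES1, chr3:194136059-194136088, plus strand: tactgTGGGAAagaaagttTGGGAAgtttc
RBPJ, chr4:26319623-26319644, plus strand: taggaaatTTCCCAcggccgtg
RBPJ, chr4:26319666-26319687, plus strand: gaaggcggTGGGAAggaggtgt
RUNX3, chr1:24965122-24965147, minus strand: ccctcaACCACAgaACCACAaggcca
RUNX2, chr6:45328340-45328365, plus strand: caaacaACCACAgaACCACAagtgcg

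The HES1 window held 2 RBPJ cores, the pair shown, and so did 1 of the 5 RBPJ windows. Of all 35116 windows of that length, 24% held at least 1 RBPJ core and 3.8% held 2 or more. The upstream RUNX3 window held 2 RUNX cores and 1 RBPJ core, and the upstream RUNX2 window held 4 RUNX cores. A RUNX core stood in 13.1% of all windows, and 2 or more stood in 1.31%. The stretch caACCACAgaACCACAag, 18 bases long with its RUNX cores side by side, was found in no window except the RUNX2 and RUNX3 windows, and the next longest stretch shared between members had 16 bases. The NOTCH1, NOTCH2, MAML1, HES6 and RUNX1 windows held neither core, which says only that these letters are not in these windows. For RUNX1 only the window at chr21:34888650-34888949 was searched, while RUNX2 and RUNX3 were searched at an upstream start too. A match is a run of letters and not a measured binding site.

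All values are log2 intensities as deposited. The nascent/total ratio is the nascent minus the total log2 value of a culture, centred on the median of the clusters tested in that culture. A ratio of 0 is thus the ratio of the median cluster. A positive ratio means more new RNA relative to total RNA than in that cluster, which the study's approach reads as faster turnover. Array medians ran from 6.74 to 6.95 in total RNA and from 7.58 to 7.92 in nascent RNA. Centring subtracted 0.682 to 1.11, and without it the median of all tested clusters would be 0.765 in place of -0.00795. A background of 6.39 was set at the 95th percentile of the means of 221 clusters for olfactory receptors, which belong to the nose and are not known to act in B cells. Above it lay 14197 clusters (65.2%). These olfactory receptor clusters had a median ratio of -0.12, with 5th and 95th percentiles of -0.808 and 0.516, so a gene close to background can take a ratio of that size. Of 9 B cell markers on the array, 9 lay above background in total RNA, with list means of 10.2 to 10.8 in the 7 lines. Of T and NK cell markers 2 of 14 did (CD7 and NKG7), of monocyte and granulocyte markers 1 of 7 (ELANE), and of fibroblast and epithelial markers 4 of 10 (COL1A1, KRT8, KRT18 and KRT19), with list means of no more than 5.91 in any line. Whether these cells had any part in the results was not tested. Arrays number few per line, which limits the precision of every value. In a culture, fewer cells with a transcript and less transcript per cell cannot be told apart.

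Nascent RNA of 6 of the 7 tested genes stood high relative to total RNA: HES1, NOTCH1, RUNX3, RUNX1, RBPJ and MAML1, while RUNX2 did not pass the test. The test took 1 value per line over 7 lines against 0, in limma, with the Benjamini-Hochberg adjustment over all 14197 clusters and a threshold of 0.05. Over all clusters tested, 31.7% passed as higher and 31.7% as lower. The ratio was positive in every line for 5 of the 7 genes, NOTCH1, HES1, MAML1, RUNX1 and RUNX3, against 24.9% of all tested clusters. The median ratio of the 7 genes was 0.59, against -0.00795 for all clusters tested. The 10th and 90th percentiles of all clusters were -0.79 and 0.94. NOTCH1 and HES1 stood above the 90th percentile, and the other 5 genes lay between both percentiles.

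**Figure D1:**
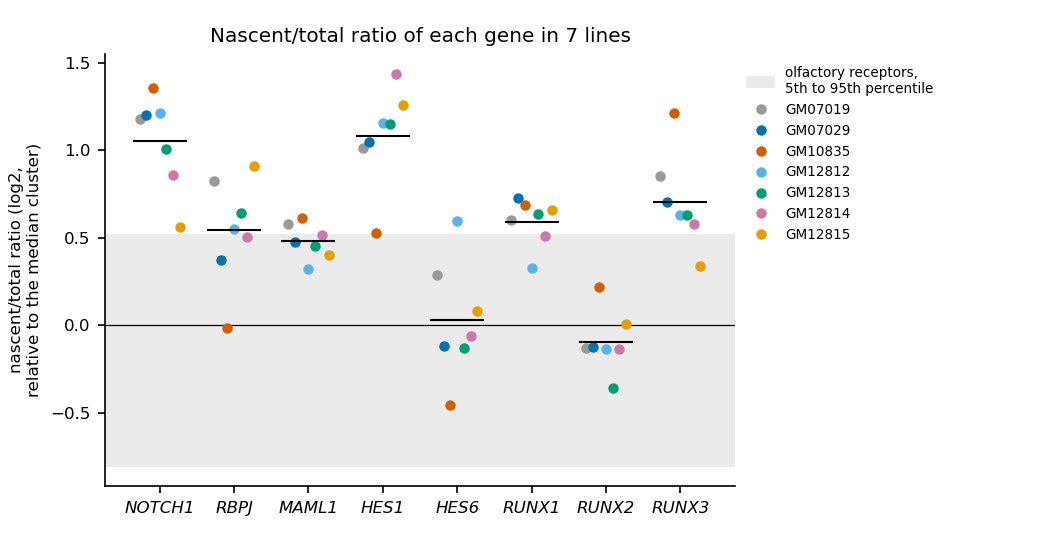
Nascent/total ratio (y axis, log2, with 0 the median cluster of a culture) of the 8 measured genes, with 1 point per line, coloured by line. Horizontal bars are means over 7 lines and the grey band spans the 5th to 95th percentile of olfactory receptor clusters (-0.808 to 0.516); HES1 and NOTCH1 lie highest, and RUNX2 and HES6 lie around 0.

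NOTCH1, the receptor, had one of the higher ratios of the group. Its ratio was 1.18 in GM07019, 1.20 ± 0.157 (SD, n = 3) in GM07029, 1.36 ± 0.0308 in GM10835, 1.21 in GM12812, 1.01 ± 0.0703 in GM12813, 0.86 in GM12814 and 0.56 in GM12815. Every culture was positive, and the single GM12815 culture was the lowest. The mean over 7 lines was 1.05 ± 0.271 (SD), a nascent-to-total value 2.08-fold above that of the median cluster (adjusted p = 5.66e-06). Total NOTCH1 RNA ran from 7.14 in GM12815 to 7.77 in GM12813. Nascent NOTCH1 RNA was 8.35 in GM12815 and 9.29 to 9.88 in the 12 other cultures, so that this culture stood apart in nascent RNA. The GM12815 nascent array also had the lowest median of tested clusters, 8.49 against 8.77 to 9.06 in the other lines. With each array centred on that median, nascent NOTCH1 in GM12815 was -0.14 and in the other lines 0.45 to 0.91, so the gap was still there.

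Among the 3 lines with replicate cultures, no difference in NOTCH1 passed the F test. The range of line means was 0.35 for the ratio (adjusted p = 0.128), 0.25 for total RNA (adjusted p = 0.0746) and 0.15 for nascent RNA (adjusted p = 0.214). The ratio of GM12813 minus that of GM10835 was -0.35, with a 95% interval from -0.629 to -0.0709 (adjusted p = 0.0694). With arrays centred, total NOTCH1 RNA did pass (range 0.39, adjusted p = 0.00474). Nascent RNA also passed the F test there (adjusted p = 0.00314), with GM07029 minus GM12813 at 0.21.

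RBPJ, the DNA-binding factor that Notch and EBNA2 share, showed the widest spread between lines in its ratio of the 7 genes tested. In GM10835 the 3 cultures had ratios of -0.18, 0.08 and 0.06. In GM07029 they had 0.20, 0.52 and 0.40, and in GM12813 0.61, 0.60 and 0.71. These 3 lines did not overlap. The single cultures of GM12814, GM12812, GM07019 and GM12815 lay at 0.51, 0.55, 0.82 and 0.91. The mean over 7 lines was 0.54 ± 0.306 (SD), 1.46-fold, and 6 of 7 lines were positive (adjusted p = 0.000981).

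Between the 3 replicated lines, the RBPJ ratio differed (range of means 0.66, 1.58-fold, adjusted p = 0.00951). The background of that comparison was 25.3% of all tested clusters called, and the median range over all of them was 0.344. GM12813 exceeded GM10835 by 0.66 with a 95% interval from 0.385 to 0.925 (adjusted p = 0.0039), while GM10835 minus GM07029 was -0.39 (adjusted p = 0.0577). These contrasts passed in 23% and 13.8% of all tested clusters, and in 9.38% the GM10835 ratio lay below both other lines with no overlap.

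The difference in RBPJ lay in total RNA. Total RBPJ RNA was 9.39, 9.32 and 9.38 in the GM10835 cultures, 8.84, 8.69 and 8.86 in GM07029, and 8.66, 8.70 and 8.48 in GM12813. The 4 single cultures ran from 8.33 to 8.72, so every GM10835 culture was above all others. GM10835 was 1.48-fold above GM07029 (adjusted p = 0.00103) and 1.68-fold above GM12813 (adjusted p = 0.000191). Those contrasts passed in 47.8% and 37.9% of all tested clusters. By the F test 56.2% differed in total RNA, and in 23.2% GM10835 lay above both other lines with no overlap. In nascent RNA, RBPJ spanned 9.93 to 10.18 between these lines, a range of 0.24 that just passed (adjusted p = 0.0485). That call ended under 13 of 16 alternatives. With each array centred, GM10835 minus GM07029 was -0.0055, and the F test over the 3 lines did not pass (adjusted p = 0.778).

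MAML1, a Mastermind-like coactivator that bridges Notch and RBPJ to the transcription machinery, varied least. Its ratio lay between 0.32 in GM12812 and 0.61 in GM10835, with a mean of 0.48 ± 0.100 (SD), 1.39-fold, and was positive in 13 of 13 cultures (adjusted p = 0.00013). This mean lies inside the range of the olfactory receptor clusters, although MAML1 itself was well above background, at 8.19 to 8.52 in total RNA and 9.50 to 9.77 in nascent RNA. The SD of 0.100 over lines compares with a median of 0.261 over all tested clusters. No difference between the 3 lines passed as deposited: the range of means was 0.16 for the ratio (adjusted p = 0.42), 0.16 for total RNA (adjusted p = 0.302) and 0.09 for nascent RNA (adjusted p = 0.538). With arrays centred, total MAML1 RNA did pass (range 0.29, adjusted p = 0.0292). It also passed the F test with quantile normalisation (adjusted p = 0.0254), with GM12813 minus GM10835 at 0.31. Nascent RNA passed the F test with arrays centred (adjusted p = 0.0492), and there GM10835 minus GM07029 turned to -0.16. For the ratio, the interval of GM10835 minus GM07029 ran from -0.0943 to 0.375, so differences of up to that size are compatible with these cultures.

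**Figure D2:**
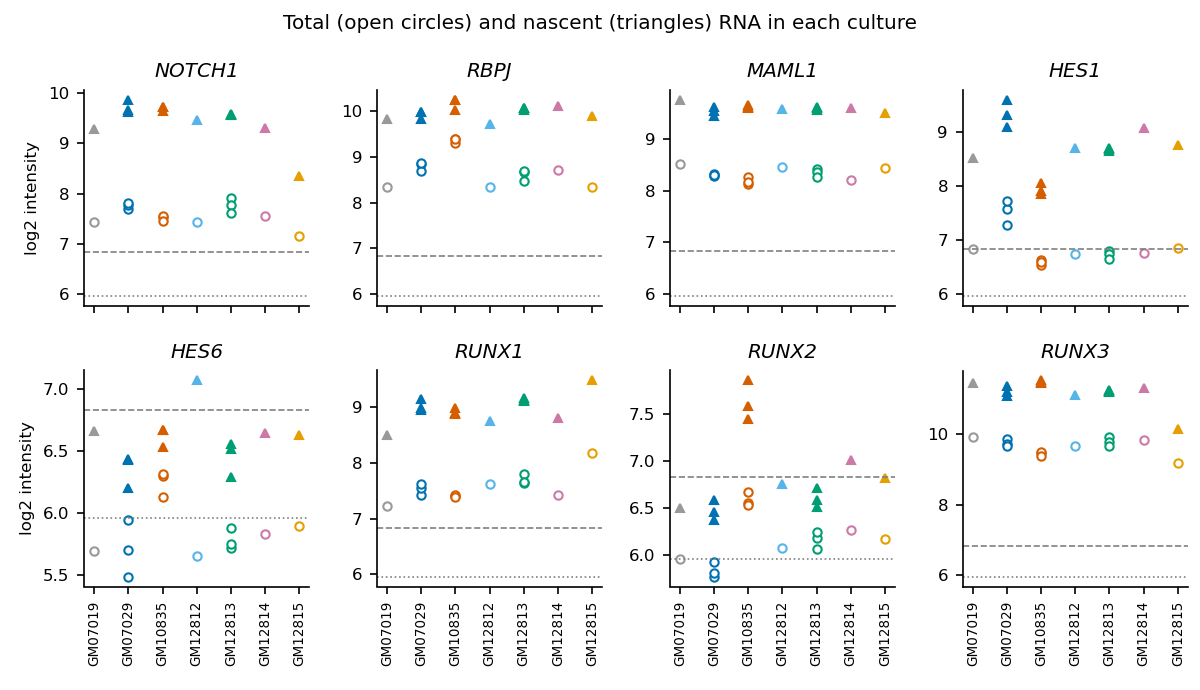
Log2 intensity (y axis) of total RNA (open circles) and nascent RNA (filled triangles) of the 8 measured genes in each of the 13 cultures, by line (x axis); each panel has its own y range. Dotted and dashed lines mark the olfactory receptor background of total RNA (5.96) and of nascent RNA (6.83); RUNX2 and HES6 lie near them in most lines and the other 6 genes lie above.

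HES1, a repressor and a classical Notch target, had the highest mean ratio and the widest differences between lines in new RNA. Nascent HES1 RNA was 9.60, 9.31 and 9.10 in the GM07029 cultures, 8.69, 8.70 and 8.64 in GM12813, and 7.85, 7.90 and 8.06 in GM10835. The 3 lines stood apart with no overlap, and the single cultures lay between 8.51 in GM07019 and 9.07 in GM12814. GM07029 was 2.64-fold above GM10835 (adjusted p = 2.9e-06) and 1.58-fold above GM12813 (adjusted p = 0.0029). GM12813 was 1.67-fold above GM10835 (adjusted p = 0.000441). The same contrasts passed in 55.2%, 18.2% and 43.3% of all tested clusters. Of all tested clusters, 56.6% differed between these lines in nascent RNA, with a median range of 0.347 against 1.40 for HES1. In 10.4% of clusters GM10835 lay below both other lines with no overlap. Nascent HES1 RNA of GM07029 stayed above that of GM10835 under each of 16 alternatives, by 1.27 to 1.65. The F test over the 3 lines gave an adjusted p of at most 0.000103 in each.

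Total HES1 RNA set GM07029 apart. Its cultures had 7.58, 7.28 and 7.72, against 6.80, 6.73 and 6.64 in GM12813 and 6.53, 6.63 and 6.58 in GM10835. The 4 single cultures had 6.73 to 6.86, so that all 10 cultures of the other lines lay below every GM07029 culture. GM07029 was 1.93-fold above GM10835 (adjusted p = 9.64e-05) and 1.74-fold above GM12813 (adjusted p = 0.00126), whereas GM12813 and GM10835 did not pass (difference 0.14, adjusted p = 0.394, interval from -0.119 to 0.408). Over all tested clusters 24.5% differed between GM12813 and GM07029 in total RNA, and in 9.28% GM07029 lay above both other lines with no overlap.

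The HES1 ratio was 1.01 in GM07019, 1.16 in GM12812, 1.26 in GM12815 and 1.44 in GM12814. In the replicated lines it was 1.05 ± 0.340 (SD, n = 3) in GM07029, 1.15 ± 0.0350 in GM12813 and 0.52 ± 0.119 in GM10835. The GM07029 mean hides a split, since 2 of its cultures had 1.22 and 1.26 and the third had 0.66, next to the GM10835 cultures at 0.50, 0.42 and 0.65. Over 7 lines the mean was 1.08 ± 0.285 (SD), 2.12-fold (adjusted p = 5.64e-06), with 13 of 13 cultures positive. The difference between the 3 lines passed (range 0.63, adjusted p = 0.0315), with GM12813 above GM10835 (adjusted p = 0.019). That call ended in 10 of 19 alternatives. Leaving out any 1 culture of GM10835 or of GM12813 gave adjusted p of 0.0633 to 0.112 with ranges of 0.58 to 0.69. Leaving ratios uncentred gave 0.0629, leaving out the second technical arrays 0.0756, and testing all clusters without a filter 0.111. With replicate number as a block, adjusted p was 0.06.

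HES6, a relative of HES1 that counters it in other cell types, was near background. In total RNA it lay above the total RNA background of 5.96 in GM10835 alone, at 6.25 (cultures at 6.13, 6.29 and 6.32), with 5.66 to 5.90 as means of the other lines. In nascent RNA only GM12812, at 7.07, lay above the nascent background of 6.83. Its ratio ran from -0.46 in GM10835 to 0.60 in GM12812, with a mean of 0.03 ± 0.338 (SD). Had all clusters been tested, the ratio would not have passed (adjusted p = 0.741), and total RNA would have differed between the 3 lines (range 0.54, adjusted p = 0.0128).

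RUNX3, the RUNX gene that EBNA2 raises in B cells, carried a ratio of 0.85 in GM07019, 0.63 in GM12812, 0.58 in GM12814 and 0.34 in GM12815. The replicated lines had 0.71, 0.72 and 0.69 (GM07029), 1.22, 1.18 and 1.24 (GM10835), and 0.53, 0.69 and 0.67 (GM12813). All GM10835 cultures stood above all other cultures. The mean over 7 lines was 0.71 ± 0.271 (SD), 1.63-fold (adjusted p = 9.02e-05). GM10835 was 1.42-fold above GM07029 (adjusted p = 0.014) and 1.5-fold above GM12813 (adjusted p = 0.00379). In 11.8% of all tested clusters the GM10835 ratio lay above both other lines with no overlap. The F test of the RUNX3 ratio passed under each of 19 alternatives, with GM10835 minus GM12813 at 0.53 to 0.70.

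As deposited, both fractions differed in RUNX3, and on centred arrays total RNA did. Total RUNX3 RNA was lower in GM10835, at 9.45 ± 0.0518 (SD, n = 3), than in GM07029 at 9.74 ± 0.0963 and in GM12813 at 9.80 ± 0.126 (range 0.35, adjusted p = 0.0279). That call ended when any 1 GM10835 culture was left out (adjusted p = 0.0704 to 0.113), or replicate 2 of GM12813 (adjusted p = 0.0612), or the second technical arrays (adjusted p = 0.054). It also ended with replicate number as a block (adjusted p = 0.0545). With each array centred the range in total RNA was larger, at 0.48 (adjusted p = 0.00138). With quantile normalisation GM12813 minus GM10835 was 0.55 (F test, adjusted p = 0.000911). Nascent RUNX3 RNA was 11.49 ± 0.0355 in GM10835, 11.21 ± 0.142 in GM07029 and 11.23 ± 0.0251 in GM12813 (range 0.28, adjusted p = 0.00786). GM10835 also had the highest nascent median over tested clusters, 9.06. With each array centred, nascent RUNX3 RNA of GM10835 minus GM07029 was 0.02, and the F test did not pass (adjusted p = 0.445).

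RUNX1, the RUNX gene best known from blood stem cells and leukaemia, had a ratio that spread little across lines, next to the median SD of 0.261 over all tested clusters. It ran from 0.33 in GM12812 to 0.73 in GM07029, with a mean of 0.59 ± 0.135 (SD), 1.51-fold, positive in 13 of 13 cultures (adjusted p = 4.37e-05). The 3 replicated lines had 0.73 ± 0.161, 0.69 ± 0.0250 and 0.63 ± 0.0706 (SD, n = 3 each) in the order GM07029, GM10835, GM12813, and their cultures overlapped (range 0.09, adjusted p = 0.80). Total RUNX1 RNA was 7.53, 7.41 and 7.70 in the same order, a range of 0.30 that passed narrowly (adjusted p = 0.0484). That call ended under 12 of 16 alternatives, among them leaving out any 1 culture of the 9 except replicate 3 of GM07029 (adjusted p = 0.050 to 0.133). Nascent RUNX1 RNA did not pass as deposited (range 0.21, adjusted p = 0.0887) and did with arrays centred (range 0.40, adjusted p = 0.000229).

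RUNX1 and RUNX3 took opposite ends in the single GM12815 culture. Total RUNX1 RNA was 8.18 there and 7.22 to 7.81 in the 12 other cultures, and nascent RUNX1 RNA was 9.48 against 8.50 to 9.17. Total RUNX3 RNA was 9.17 there and 9.39 to 9.93 elsewhere, and nascent RUNX3 RNA was 10.16 against 11.08 to 11.53. With each array centred, GM12815 was still highest in both fractions for RUNX1 (0.48 and 0.99, against at most -0.18 and 0.26). For RUNX3 it was still lowest in nascent RNA, at 1.67 against 2.33 to 2.61, but not in total RNA, where it had 1.47 and GM10835 1.43. This line has 1 culture, so the difference has no replicate, and no contrast of this line with the others was run.

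RUNX2, the RUNX gene of bone formation, was close to background except in GM10835. Its mean over all arrays was 6.49 against the background of 6.39, and it passed that filter only through the GM10835 arrays. A higher GM10835 value is thus partly set by the filter, and the RUNX2 tests between lines are given as a description. Total RUNX2 RNA was 6.56, 6.67 and 6.53 in the GM10835 cultures, 5.77, 5.81 and 5.93 in GM07029, and 6.06, 6.18 and 6.25 in GM12813. The 4 single cultures had 5.96 to 6.27. GM10835 was above every other culture, and all 3 GM07029 cultures were below the total RNA background of 5.96. Since those have only an upper bound, GM10835 was at least 1.55-fold higher than GM07029. That bound was not tested, and the contrast ran on the measured values (1.68-fold, adjusted p = 0.000247). GM10835 was 1.34-fold above GM12813 (adjusted p = 0.0104). The contrasts with GM07029 and GM12813 passed in 47.8% and 37.9% of all tested clusters. In 23.2% of them, total RNA in GM10835 lay above both other lines with no overlap.

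Nascent RUNX2 RNA was 7.45, 7.86 and 7.59 in GM10835 and 6.38 to 7.01 in the 10 other cultures. All cultures of GM07029 and GM12813 were below the nascent background of 6.83, so GM10835 was at least 1.75-fold higher than either. Each bound sets the mean of the GM10835 cultures against that background and was not tested. The contrasts ran on the measured values, at 2.23-fold over GM07029 and 2.04-fold over GM12813 (adjusted p = 1.14e-05 and 5.37e-05). They passed in 55.2% and 43.3% of all tested clusters, and the limit from the filter holds for them too. In 35.6% of all tested clusters nascent RNA in GM10835 lay above both other lines with no overlap. The median range of line means was 0.347 over all tested clusters and 1.16 for RUNX2. Both fractions differed under each of 16 alternatives.

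The RUNX2 ratio was the one ratio of the 7 tested that did not pass over 7 lines. It was -0.36 in GM12813, -0.14 in GM12814, -0.13 in GM12812, GM07019 and GM07029, 0.00 in GM12815 and 0.22 in GM10835. The mean was -0.10 ± 0.174 (SD), with an interval from -0.269 to 0.0783 (adjusted p = 0.315). Without centring it turned to 0.68 (adjusted p = 9.61e-06), as the ratio of the median cluster then lies at 0.765. Between the 3 lines the ratio passed (range 0.58, adjusted p = 0.012), with GM10835 above GM12813 (adjusted p = 0.00497). The call ended without GM10835 replicate 3 (adjusted p = 0.0526) or without GM12813 replicate 2 (adjusted p = 0.0519). A level that lies at background in a fraction limits what this ratio can show, and RUNX2 left the test when each fraction had to exceed its own background.

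**Figure D3:**
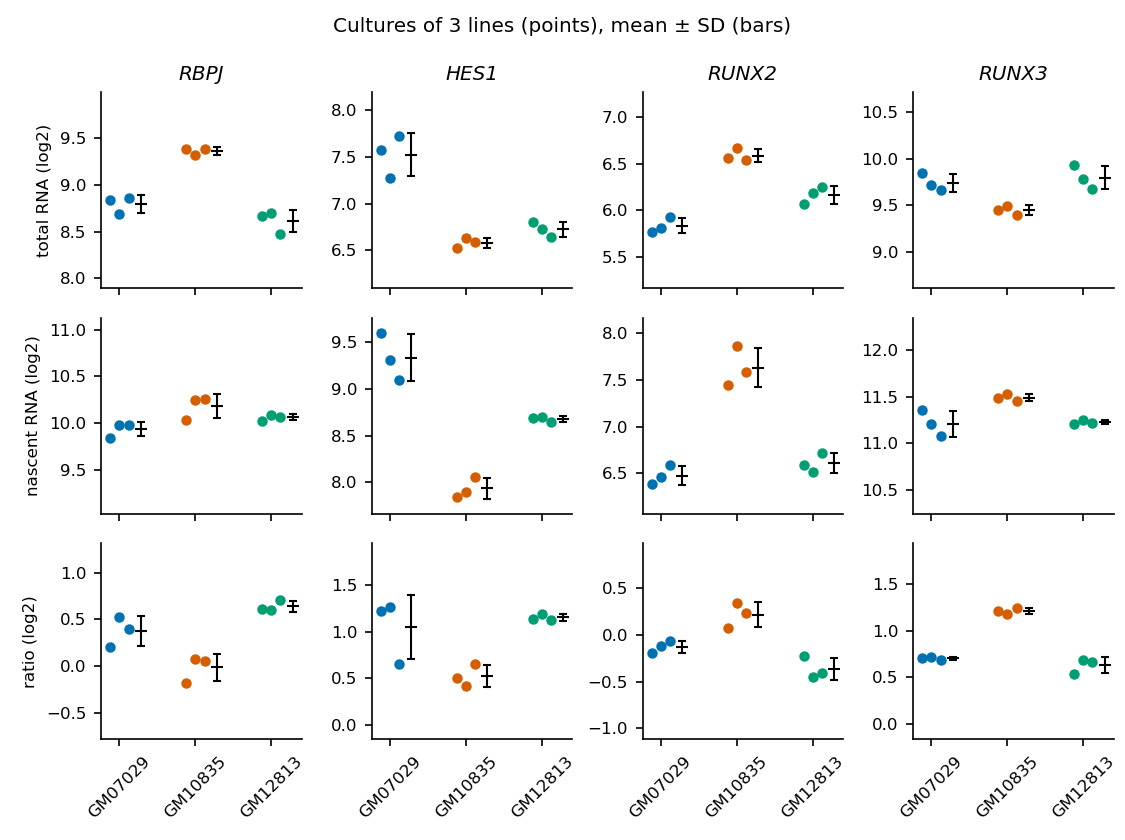
Total RNA, nascent RNA and nascent/total ratio (rows, log2 on the y axes) of RBPJ, HES1, RUNX2 and RUNX3 in the 3 lines with replicate cultures; points are cultures and bars are mean ± SD (n = 3). All panels span the same number of log2 units; RBPJ differs in total RNA and hardly in nascent RNA, and nascent HES1 falls from 9.34 in GM07029 to 8.68 in GM12813 and 7.93 in GM10835.

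The 3 RUNX genes share a DNA-binding domain and recognise the same core, and their ratios were compared within each line by an exact sign-flip permutation test (two-sided, 3 pairs, smallest possible p 0.0156). RUNX2 lay above the background of both fractions in GM10835 and GM12814 alone, and its mean ratio of -0.10 is near the median of -0.12 of the olfactory receptor clusters, so differences from RUNX2 are largely differences from background signal. In these terms RUNX1 exceeded RUNX2 by 0.69 ± 0.193 (SD) in the ratio, in 7 of 7 lines (exact p = 0.0156, adjusted p = 0.0234). RUNX3 exceeded RUNX2 in 7 of 7 lines, the difference RUNX2 minus RUNX3 being -0.80 ± 0.236 (exact p = 0.0156, adjusted p = 0.0234). RUNX1 minus RUNX3 was -0.11 ± 0.272 and ranged over lines from -0.527 to 0.318, with 3 of 7 lines positive (exact p = 0.375), so these genes were not told apart. With the trend of the ratio on signal removed, RUNX1 minus RUNX3 was -0.46 (exact test, adjusted p = 0.0312). The other planned pairs, NOTCH1 with NOTCH2 and HES1 with HES6, were not run because 1 gene of each lacked a usable value.

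In all, between the 3 lines 4 of the 7 genes differed in the ratio (RBPJ, HES1, RUNX2 and RUNX3; background 25.3%), 5 in total RNA (those and RUNX1; background 56.2%) and 4 in nascent RNA (RBPJ, HES1, RUNX2 and RUNX3; background 56.6%). The shares for total and nascent RNA are near those backgrounds. RUNX2 is in each of these counts and passed the background filter only through the GM10835 arrays. GM10835 was the extreme line in each of the 4 ratios, lowest for RBPJ and HES1 and highest for RUNX2 and RUNX3. Its difference from GM12813 passed in 23% of all tested clusters.

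Across the rest of the pathway, 59 of 81 listed genes were tested, and 19 had a higher and 19 a lower ratio than the median cluster, with a list median of -0.01. Among all tested clusters 31.7% were higher and 31.7% lower, and each list count below stands against those shares. Of the ligands, which start the signal from the neighbouring cell, 1 of 5 was higher and 2 were lower (median -0.12). JAG1 was higher at 0.64 ± 0.244 (SD over 7 lines, adjusted p = 0.00013). JAG2 was lower at -0.25 (adjusted p = 0.0142) and DLK2 at -0.46 (adjusted p = 0.000399), though both turn positive without centring, at 0.525 and 0.31. NOTCH3, the other receptor tested, lay at -0.01 (adjusted p = 0.949).

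Of genes of receptor cleavage 4 of 5 were lower and PSEN2 was higher (median -0.41; 31.7% of all tested clusters passed in each direction). APH1A, a subunit of gamma-secretase, was at -1.28 ± 0.488 (adjusted p = 1.96e-05) and also had the widest range between lines of that list, from -1.36 in GM12813 to -0.40 in GM10835 (adjusted p = 0.000582). NCSTN, another subunit, was at -0.45 (adjusted p = 0.00274; 0.32 without centring), and PSEN2, a catalytic subunit, was at 0.54 (adjusted p = 0.000134). Of the enzymes that add sugars to the receptor, 1 of 4 was higher and 1 lower (median 0.03). POFUT1 lay at 0.45 (adjusted p = 0.00118) and MFNG at -0.74 (adjusted p = 2e-04; 0.04 without centring).

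Genes of receptor trafficking and turnover divided as 3 higher, 3 lower and 4 not passing (median -0.02). The higher ones were ITCH at 0.98 (adjusted p = 3.92e-06), a ubiquitin ligase, FBXW7 at 0.91 (adjusted p = 4.08e-05), which marks the intracellular part of Notch for destruction, and NUMB at 0.80 (adjusted p = 1.06e-05), an inhibitor of Notch. FBXW7 also differed between lines, at 0.36 in GM07029, 1.11 in GM12813 and 1.30 in GM10835 (adjusted p = 0.0017).

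Around RBPJ itself, coactivators and corepressors went both ways. Of 5 tested coactivators 2 were higher and 2 lower (median -0.32): SNW1, a bridging factor, at 1.70 (adjusted p = 7.39e-07), CREBBP, an acetyltransferase, at 0.88 (adjusted p = 4.5e-06), and KAT2B, another, at -0.93 (adjusted p = 2.31e-05; -0.15 without centring, adjusted p = 0.218). SNW1 ranged from 1.27 in GM10835 to 2.11 in GM12813 (adjusted p = 0.00964, and 0.056 without the second technical arrays). Of 15 corepressors 8 were higher and 3 lower (median 0.28; 31.7% of all tested clusters in each direction). SPEN, the large scaffold that represses through RBPJ, had the highest ratio of any listed gene at 2.39 ± 0.385 (adjusted p = 5.59e-07). HDAC2, a histone deacetylase, was at 1.87 (adjusted p = 5.59e-07) and TLE3, a Groucho-type corepressor, at 1.56 (adjusted p = 2.39e-06). KDM5A, a histone demethylase, ranged from 0.86 in GM07029 to 1.51 in GM12813 (adjusted p = 0.0184, and 0.0543 or 0.0793 without replicate 2 or 3 of GM12813, and 0.112 without the second technical arrays).

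Of the other HES and HEY repressors, 1 of 4 passed: HEY1, a Notch target like HES1, at 1.36 ± 0.299 (adjusted p = 1.83e-06; list median 0.10). Total HEY1 RNA was 7.60 in GM07029, 7.26 in GM12813 and 6.31 in GM10835 (adjusted p = 1.43e-05). Nascent HEY1 RNA was 10.02, 9.60 and 8.66 in the same lines (adjusted p = 1.28e-06), so GM07029 was highest and GM10835 lowest in new RNA for HEY1, as for HES1. HES4, the other gene of this list that differed in nascent RNA, ran the other way, with 7.76 in GM07029, 7.89 in GM12813 and 8.12 in GM10835 (adjusted p = 0.0234). It is named here because of that order, after its values were seen. The share of all tested clusters that differed in nascent RNA was 56.6%. Of 2 RUNX partners, CBFA2T2, a corepressor, was higher at 0.44 (adjusted p = 0.000664), and CBFB, the shared partner that stabilises RUNX proteins on DNA, lay at 0.07 (adjusted p = 0.483).

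Of 8 host genes known to be raised by EBNA2, 1 was higher and 4 were lower (median -0.18), against 31.7% each way in all tested clusters. Between the 3 lines, 2 of 8 differed in the ratio (background 25.3%), 8 of 8 in total RNA (background 56.2%) and 6 of 8 in nascent RNA (background 56.6%). CR2 and FCER2 of this list are also among the B cell markers. FCER2, a receptor for IgE on activated B cells, had the lowest ratio of any listed gene at -2.04 ± 0.116 (adjusted p = 4.97e-07). FGR, a tyrosine kinase, was at -0.60 (adjusted p = 7.09e-05; 0.17 without centring) and MYC, the growth regulator, at 0.70 (adjusted p = 0.000306). ACKR3, a chemokine receptor, ranged from 0.18 in GM07029 to 0.75 in GM10835 (F test, adjusted p = 0.0271). Without replicate 3 of GM07029 or any 1 GM10835 culture, adjusted p was 0.0533 to 0.0908. It was 0.0512 with replicate number as a block and 0.0555 without the filter on low values. Total ACKR3 RNA was 6.97 in GM07029, 5.96 in GM10835 and 5.93 in GM12813, against a total RNA background of 5.96. A total level at background limits what this ratio can show.

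**Figure D4:**
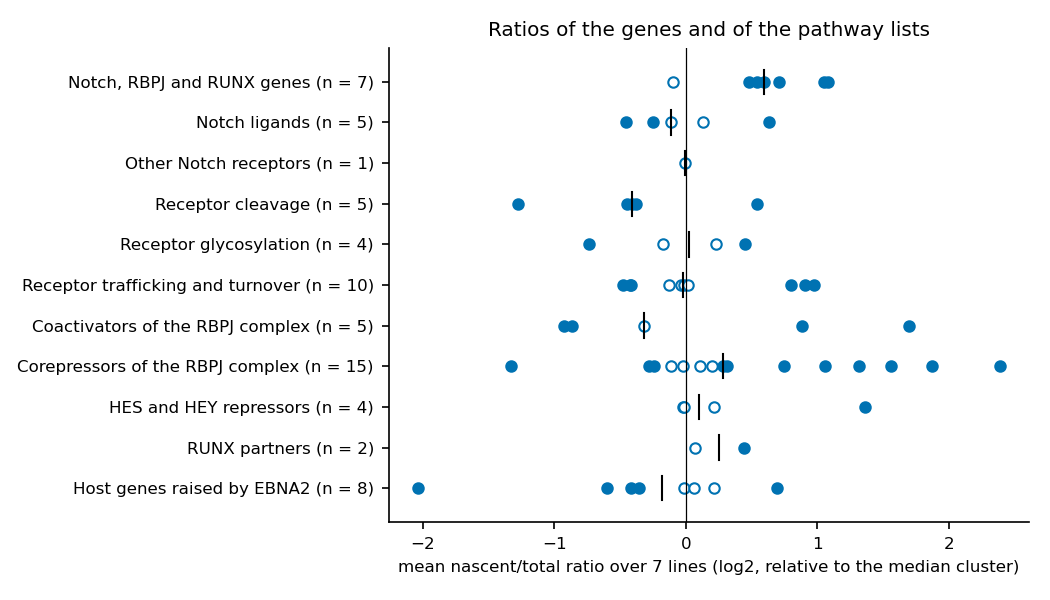
Mean nascent/total ratio over 7 lines (x axis, log2 relative to the median cluster) of the 7 tested genes and of each pathway list (y axis, number tested in brackets). Points are genes, filled where the limma test passed, and vertical bars are medians; the 7 genes have a median of 0.59, receptor cleavage genes -0.41 and corepressors 0.28, with SPEN at 2.39 and FCER2 at -2.04.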

How the data were processed

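Human exon array values of transcript clusters were log2 intensities deposited by the authors, 1 column per array. Affymetrix Power Tools and build hg18 are named in the submitters' processing notes. The sources used here do not give the summary algorithm, the background correction or whether both fractions were normalised together, so ratios were read against the median cluster. Symbols came from the platform table: 14405 clusters had 1 symbol (14377 matched in RefSeq), 2365 several and 5018 none. Technical duplicates were averaged. They differed in the ratio of the 7 tested genes by 0.00981 to 0.239.

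Tests used limma 3.58.1 in R 4.3.3 (lmFit, eBayes with a trend): 1 value per line over 7 lines, two-sided, and a moderated F test with pairwise contrasts over 9 cultures of 3 lines. Adjusted p is by Benjamini-Hochberg over 14197 clusters, and intervals are at 95%. Fold changes are 2 to the power of a log2 difference. The ratio test over 7 lines and the F test of the ratio between 3 lines were tried on simulated data, and the other steps were not. Figures used matplotlib 3.10.9 in Python 3.11.15.

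Members, lists and the rule for named genes were chosen with earlier results of these data known. The rule took, from each list, the 3 tested genes with the largest absolute ratio among those that passed (the 1 largest where none did) and the 1 with the largest range between lines among those called. RNA of replicate cultures was independent per the labels. Alternatives covered centring, normalisation, filters, duplicates, trend, variance prior, a block and leaving out each line or culture. The option of averaging several clusters of a gene was not needed for the 8 measured genes, which had 1 each, and was not run.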

Additional observations from a re-analysis of the deposited data

Results flagged for a closer look

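Levels and ratios of the 8 measured genes over 7 lines gave 24 groups of values to examine for a line far from the others by Dixon's test, in which chance marks about 5% of groups, and 5 were marked. Nascent NOTCH1 RNA was low in GM12815 (8.35), and nascent RUNX3 RNA was low in the same single culture (10.16), whose nascent array had the lowest median of tested clusters. Total HES1 RNA was high in GM07029 (7.53, the mean of 3 cultures). HES6 was high in total RNA in GM10835 (6.25) and in nascent RNA in GM12812 (7.07), each the only line above the background of its fraction.

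In 4 of the 7 tested genes the nascent/total ratio differed between GM07029, GM10835 and GM12813 by limma's F test, against 25.3% of all tested clusters. The range of line means was 0.655 for RBPJ, 0.627 for HES1, 0.577 for RUNX2 and 0.582 for RUNX3. Over all tested clusters the median range was 0.344. RUNX2 passed the background filter only through the GM10835 arrays, and the HES1 call held in 9 of 19 alternatives.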

How the results depend on the processing

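The 6 positive ratios over 7 lines passed under each of 16 alternatives. Without centring 7 genes passed, as RUNX2 turned to 0.68, and JAG2 (0.525), DLK2 (0.31), NOTCH3 (0.77), NCSTN (0.32), MFNG (0.037) and FGR (0.17) also turned positive. With each array centred, nascent RNA of GM10835 minus GM07029 turned to -0.0055 for RBPJ and -0.16 for MAML1 (F test of MAML1, adjusted p = 0.0492). Leaving out 1 culture gave 2 to 4 called ratios between 3 lines, 2 of them without GM10835 replicate 3 or GM12813 replicate 2, and 3 to 5 called genes in total RNA. Total RNA gave 3 without the second technical arrays. Deviations of same-numbered cultures of different lines had r from -0.432 to 0.113 in total RNA, -0.459 to 0.393 in nascent RNA and -0.434 to 0.198 in the ratio. With 3 cultures per line, these values cannot tell whether the numbers pair cultures. With the replicate block, 3 ratios, 3 total RNA and 4 nascent RNA values passed. The difference RUNX1 minus RUNX3 passed with the trend on signal removed (-0.46, exact test, adjusted p = 0.0312). The cause of these changes was not tested. The filter in which each fraction had to exceed its own background was chosen after seeing the data and gave 6 and 3 called ratios. Over the 7 tested genes, 405 single values kept their call, 43 lost and 14 gained a call, and 3 changed direction with a call before or after. A change of direction without any call counts among the 405, as for nascent MAML1 RNA with quantile normalisation (-0.12). RUNX2 and HES6 are limited by their signal over background.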

Other observations

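The genes whose total RNA followed each member most closely over 13 cultures were named as a description, from Pearson's r on log2 values, in which cultures of one line share a donor and lines differ in many genes at once. RBPJ was followed by FAM162A (r = 0.975) and ERH (r = 0.972), and NOTCH1 by ABCA6 (r = 0.935) and EEF2K (r = 0.931). HES1 was followed by ANTXR2 (r = 0.957), an anthrax toxin receptor, and DSE (r = 0.956), and MAML1 by BCL9 (r = 0.905), a coactivator of Wnt signalling, and RCSD1 (r = 0.902). RUNX2 was followed by ABCG1 (r = 0.961), a cholesterol transporter, and SSUH2 (r = 0.96), and RUNX3 by SLC45A3 (r = 0.928) and CD244 (r = 0.919), a receptor best known from natural killer cells. RUNX1 had the loosest matches, C1orf162 (r = 0.826) and IRF8 (r = 0.797), a transcription factor of B cell and myeloid development.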
